A study of Homo sapiens with 23 samples.

Results

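Long non-coding RNAs (lncRNAs) of growth and stress were followed across the histone acylation maps of SW480 cells, an established human colorectal cancer epithelial line. The 9 genes MALAT1, NEAT1, SNHG1, SNHG5, GAS5, H19, KCNQ1OT1, MIR17HG and MIR22HG were chosen by name from the 38899 protein-coding and lncRNA genes of GENCODE 44 (18866 of them lncRNA genes), and all 9 were found in the annotation. Each gene window was the gene body with 1 kb on both sides. Chromatin immunoprecipitation followed by sequencing (ChIP-seq) had been carried out with antibodies against propionyl (pr), butyryl (bu) or acetyl (ac) lysine at position 18 of histone H3 (H3K18) or position 12 of histone H4 (H4K12). The propionyl marks H3K18pr and H4K12pr came from cells kept for 12 to 16 h in 10 mM sodium propionate (NaPr). The butyryl marks H3K18bu and H4K12bu came from cells kept as long in 1 mM sodium butyrate (NaBu). H3K18ac and H4K12ac were mapped in NaPr, in NaBu and in untreated cells. This gave 10 groups of 2 libraries, with 1 input library of sheared chromatin for each of the 3 conditions. The study asked where propionyl and butyryl marks lie in comparison with the acetyl marks at the same lysines and with input. The cells were 1 cancer line, and the labels do not say that replicates came from separate cultures, so p-values measured the spread between these libraries, which may be technical.

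Histone acylation at promoters and enhancers accompanies active transcription, and propionate and butyrate both feed acyl-CoA pools and inhibit histone deacetylases. The 9 lncRNA genes fall into 4 kinds by what their transcripts do. MALAT1 and NEAT1 RNAs stay in the nucleus, where MALAT1 gathers at splicing speckles and NEAT1 builds paraspeckles, and both are made in very large amounts in many epithelial cells. SNHG1, SNHG5 and GAS5 carry small nucleolar RNAs (snoRNAs) in their introns and belong to the class of growth-regulated transcripts that begin with a run of pyrimidines. H19 and KCNQ1OT1 are imprinted genes of the chromosome 11 growth cluster, expressed from 1 parental copy. MIR17HG and MIR22HG give rise to the microRNAs of the miR-17 to miR-92a cluster, an oncogenic group under MYC control, and to miR-22.

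The measurement was the percentage of each gene window covered by regions, a region being 1 interval that the authors' peak caller had listed for 1 library at a p-value threshold of 0.01. Immunoprecipitated lists held 8158 to 208823 regions over 2.78 to 114 Mb. The butyryl lists were the shortest at 8158 to 22497 regions, and the input lists held 93923 regions for NaPr, 40826 for NaBu and 30386 for untreated cells. Length differed within groups too. Replicate 1 of H3K18ac NaPr had 202787 regions where replicate 2 had 95194, and replicate 2 of H4K12ac NaBu had 11680 where replicate 1 had 88658, so calls that rest on either are given with and without it. A longer list covers more of any gene, and read depth was not analysed here. Starts of 6 colon epithelial genes such as EPCAM and KRT18 were covered in 3 to 8 of the 20 immunoprecipitated libraries, and those of 7 genes of other cell types in 0 to 3, with the leukocyte genes PTPRC and CD3E at 0. In these bulk libraries, fewer marked cells and less mark per cell cannot be told apart.

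Sequences around a start site are shown for 4 genes. For MIR22HG the sequence is that of the RefSeq start, whereas the main MIR22HG results below use its GENCODE start. Each window runs from 250 bases before to 50 bases after the start, on the transcribed strand of hg38, with capitals for matches on either strand to the GC box GGGCGG, the CCAAT box, the TATA box TATAAA, the E-box CACGTG or the cyclic AMP response element TGACGTCA. MALAT1 (chr11:65497390-65497689, plus strand), NEAT1 (chr11:65422548-65422847, plus strand), GAS5 (chr1:173867940-173868239, minus strand) and MIR22HG at its downstream RefSeq start (chr17:1716161-1716460, minus strand) read as follows.
MALAT1: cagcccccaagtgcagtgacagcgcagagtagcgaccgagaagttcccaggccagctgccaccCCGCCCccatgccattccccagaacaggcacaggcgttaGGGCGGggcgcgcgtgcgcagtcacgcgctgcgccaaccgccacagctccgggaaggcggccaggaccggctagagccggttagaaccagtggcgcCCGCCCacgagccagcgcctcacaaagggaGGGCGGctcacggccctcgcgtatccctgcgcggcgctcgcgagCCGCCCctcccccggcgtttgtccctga
NEAT1: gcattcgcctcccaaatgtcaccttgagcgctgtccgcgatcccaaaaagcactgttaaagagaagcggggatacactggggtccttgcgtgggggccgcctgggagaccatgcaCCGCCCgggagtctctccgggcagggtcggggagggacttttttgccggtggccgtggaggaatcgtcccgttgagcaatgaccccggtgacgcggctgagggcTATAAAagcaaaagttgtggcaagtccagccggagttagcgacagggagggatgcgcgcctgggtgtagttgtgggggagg
GAS5: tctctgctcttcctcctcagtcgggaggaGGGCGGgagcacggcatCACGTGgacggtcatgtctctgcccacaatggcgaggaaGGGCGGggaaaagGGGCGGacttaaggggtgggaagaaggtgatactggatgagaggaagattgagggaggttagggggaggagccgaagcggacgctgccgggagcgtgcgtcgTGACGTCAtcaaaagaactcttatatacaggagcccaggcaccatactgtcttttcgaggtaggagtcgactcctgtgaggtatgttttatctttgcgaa
MIR22HG: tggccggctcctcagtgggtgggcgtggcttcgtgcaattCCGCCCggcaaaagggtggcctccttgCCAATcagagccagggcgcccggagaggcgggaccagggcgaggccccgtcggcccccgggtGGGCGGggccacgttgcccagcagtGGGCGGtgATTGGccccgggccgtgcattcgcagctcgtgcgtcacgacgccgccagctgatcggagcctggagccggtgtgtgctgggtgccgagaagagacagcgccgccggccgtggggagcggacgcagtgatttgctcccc

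The MALAT1 window held 5 GGGCGG matches and a GC content of 71.7%, against a median of 57% over all 38896 windows of this length and 49% over those of lncRNA genes. GGGCGG was present in 42.6% of all windows and in 8 of the 9 lncRNA genes, with H19 the exception. Counts over the 9 genes use the GENCODE start of each. The GENCODE window of MIR22HG held 54.3% GC and 1 GGGCGG match, against 72.3% and 3 at the RefSeq start shown. H19 has a RefSeq start 3286 bp downstream of its GENCODE start, and that window was not searched. NEAT1 was the only one of the 9 with TATAAA, beginning at −31 from its start, and 12.6% of all windows held these letters. GAS5 held CACGTG at −204 from its start, as 7.17% of windows did anywhere, and TGACGTCA at −50, as 1.8% did. CCAAT was found in 35.7% of windows and in 4 of the 9 genes. KCNQ1OT1 had 4 copies, 1 of which overlapped a GGGCGG match. TTCNNGAA, letters of the heat shock element, was in 7.4% of windows and in none of the 9. These matches describe letters and were not tested as binding sites.

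MALAT1 was the most thoroughly covered of the 9 genes. It lies at chr11:65497640-65508073 on the plus strand (ENSG00000251562.11), and its window also holds the antisense gene TALAM1 and the upstream start of ENSG00000270117, which regions without strand cannot separate from it. Regions covered 96.9% and 96.1% of the window in the 2 H3K18pr libraries and 93.2% and 83.2% in the H4K12pr libraries. In untreated cells, the H3K18ac values were 98.3% and 98.2% and the H4K12ac values 94% and 93.6%. NaPr gave 97.1% and 100% for H3K18ac and 89.5% and 89.3% for H4K12ac. Propionyl and acetyl libraries of these conditions therefore sat close together, and all lay above every library from NaBu-treated cells.

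In NaBu, MALAT1 coverage was 64.6% and 62.8% for H3K18ac and 23% and 29% for H4K12ac. The butyryl marks covered less, with 24.3% and 27.4% for H3K18bu and 14.6% and 19.4% for H4K12bu. The input lists covered 0%, 0% and 3.25% in NaPr, NaBu and untreated cells. Even the lowest immunoprecipitated value therefore exceeded the highest input value. Across the 20 immunoprecipitated libraries the median was 89.4%, and MALAT1 ranked between the 98.7th and the 100th percentile of all genes within a list. The rank stayed high in the short butyryl lists, where few genes held any region.

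Regions at MALAT1 were wide. The widest, of 23052 bp in H3K18pr replicate 1, began upstream of the window and ended 9670 bp past the start, and one of 21274 bp covered the whole window in H3K18ac NaPr replicate 2. In the butyryl lists the widest was 953 bp. Dividing the gene body into 10 equal segments from the 5′ end, the median coverage over 20 libraries was between 70.9% and 100% in every segment. The butyryl libraries placed most of their coverage in segments 1 to 3. For H3K18bu replicate 1 these were covered to 71.2%, 88.3% and 57.9% and the other 7 were at 0. H4K12ac NaBu replicate 1 had 53.2% and 25.5% in segments 1 and 2, nothing in segments 3 to 5, and 13.3% to 42.5% in segments 8 to 10. Replicate 2 of H4K12ac NaBu had 50.7%, 74.4% and 85.2% in segments 1 to 3, closer to the butyryl libraries. It had nothing in segments 4 to 7, and 28.8% and 44.1% in segments 8 and 9.

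NEAT1, the paraspeckle RNA gene at chr11:65422774-65445540 on the plus strand (ENSG00000245532.11), was covered at its 5′ end in all 20 immunoprecipitated libraries. Coverage further along the gene differed between libraries. H4K12ac in untreated cells gave the highest coverage at 84.6% and 78.5%, and H3K18ac in untreated cells gave 58.1% and 44%. The H3K18pr libraries were at 39.8% and 29%, and the H4K12pr libraries at 51.1% and 53.9%. H3K18ac in NaPr covered 79.5% and 49.8%, and H4K12ac in NaPr 47.6% and 31.9%. The 2 replicates of a NaPr acetyl mark were far apart, while those of H4K12pr were close together.

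NaBu-treated cells again held the lowest NEAT1 values. They were 26.9% and 26.3% for H3K18ac, 15.6% and 14.2% for H4K12ac, 14.4% and 13.1% for H3K18bu, and 14.1% and 9.81% for H4K12bu, while the inputs reached 2.17%, 0% and 1.11%. The median over the 20 immunoprecipitated libraries was 35.9%, at the 94.5th to 99.6th percentile of genes. Segments 1 and 2 of the body were 100% covered at the median, segment 3 to 82.5% and segment 4 to 19.5%. Segments 5 to 8 had a median of 0, and segments 9 and 10 were at 7.05% and 21.7%. Untreated H4K12ac, in contrast, reached along the body. In segments 4 to 10 it covered 48.6% to 93.4% in replicate 1 and 8.43% to 96.9% in replicate 2. The short NEAT1 isoform ends early in the body and the long isoform runs through it, and a map of regions does not tell the isoforms apart. The 3′ regions covered the microRNA MIR612, which lies 21660 bp from the start, in 7 of 20 libraries.

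**Figure D1:**
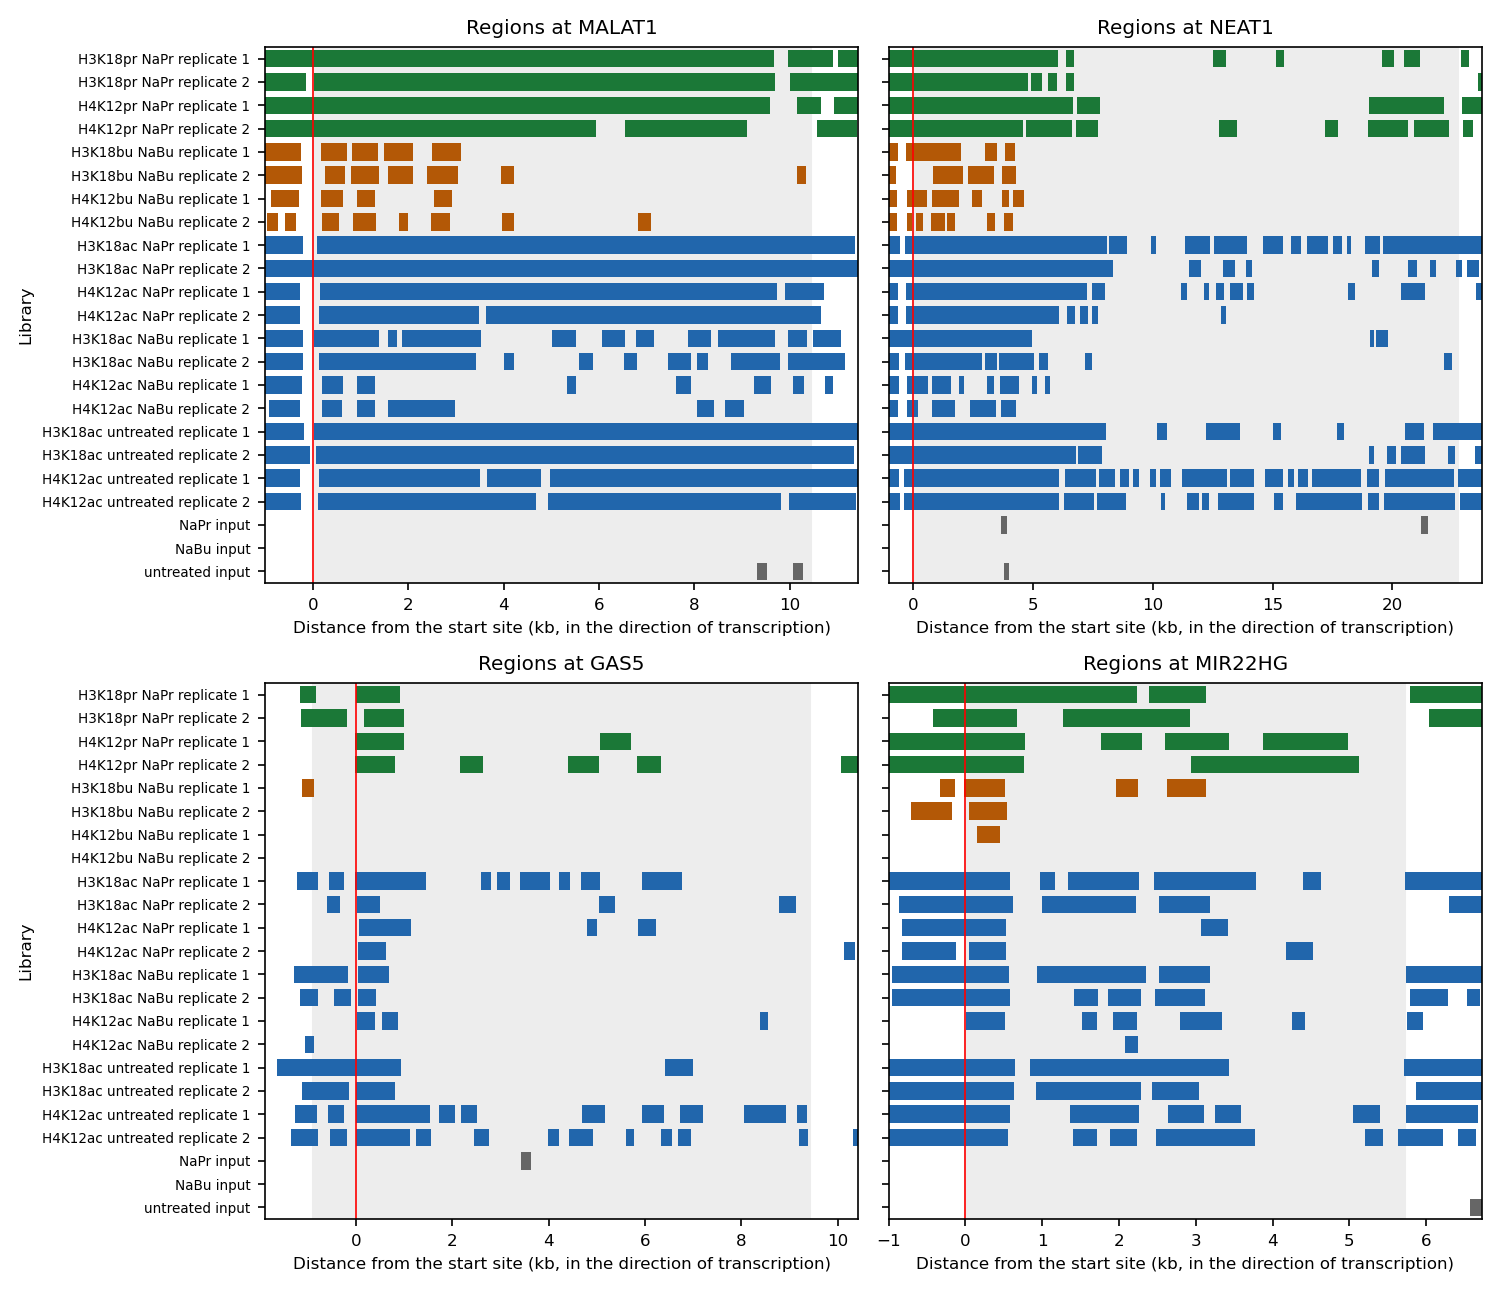
Regions of each library along MALAT1, NEAT1, GAS5 and MIR22HG. The horizontal axis is the distance from the start site in kb in the direction of transcription, each row is 1 of the 23 libraries, bars are regions (green propionyl, orange butyryl, blue acetyl, gray input), gray shading is the gene body and the red line the start. Immunoprecipitated libraries of NaPr and untreated cells cover 83.2% to 100% of MALAT1 and those of NaBu 14.6% to 64.6%. At the median over libraries, NEAT1 is filled mainly in the first 3 of its 10 segments.

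The strongest region at a gene was ranked by its −log10 p-value among all regions of the same list. At MALAT1 it ranked 8th to 816th, a median of 0.0832% of the list, with a fold enrichment over local background of 4.46 to 99.7. NEAT1 ranked 12th to 441st, a median of 0.091% of the list, with folds of 6.41 to 92.6. A ranked region only had to overlap the window, and its summit could lie outside. The MALAT1 summit in H4K12pr replicate 2 was at −9378 bp from the start. NEAT1 summits included −3383 bp in H3K18ac NaPr replicate 1 and −1888 bp in H3K18bu replicate 2. Further NEAT1 summits outside the window lay at −1030 to −1224 bp. They belonged to H3K18bu and H4K12bu replicate 1, H3K18ac NaBu replicate 2, H4K12ac NaBu replicate 1 and untreated H4K12ac replicate 1. The NEAT1 region with a fold of 92.6 had its summit at −1016 bp, just inside the window. MIR22HG ranked 7th to 9568th in the 19 libraries where it had a region, with a median of 0.226%. Medians of the other 5 genes with regions lay between 7.69% for KCNQ1OT1 and 27.8% for MIR17HG. MALAT1 and NEAT1 had a region in the strongest 1% of 15 lists each and MIR22HG in 13. GAS5 had such a region in 2 lists and KCNQ1OT1 in 1, and SNHG1, SNHG5 and MIR17HG had none. How many of all genes had such a region was not counted, so these counts describe the 9 genes without a background. In the inputs, the best rank at any of the 9 genes was 4.41% of the list, at SNHG5. Fold and p-values depend on each library's depth, so ranks were read only within a list.

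**Figure D2:**
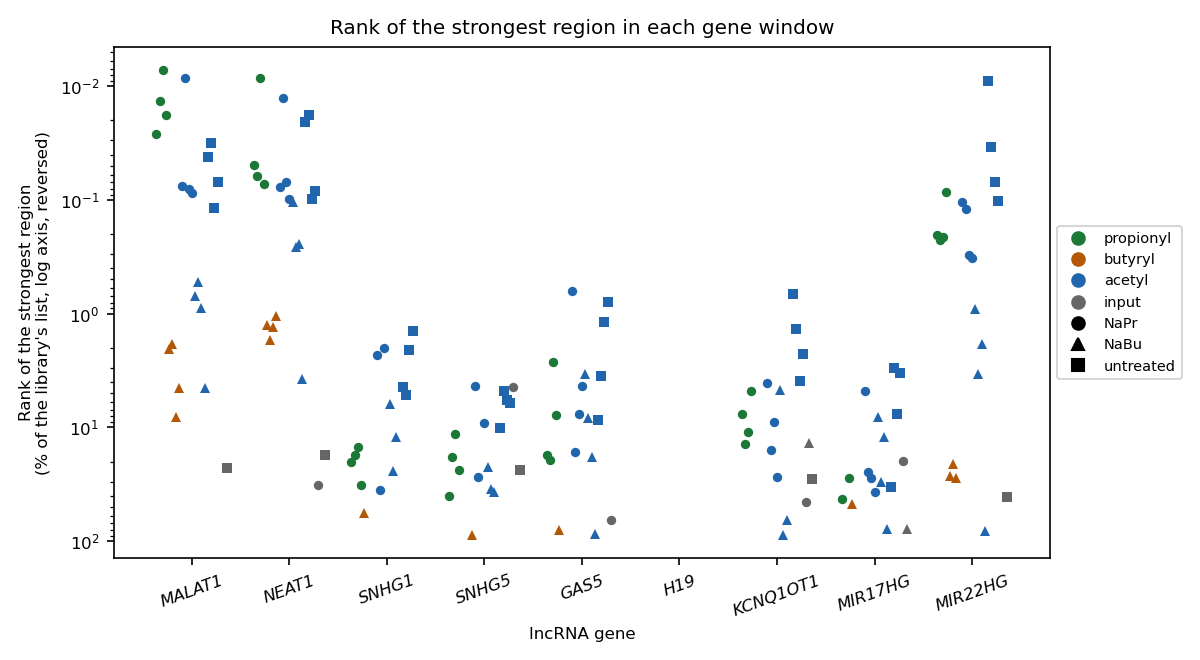
Rank of the strongest region in each gene window as a percentage of the library's list. The vertical axis is logarithmic and reversed so that strong regions are at the top, each point is 1 library with color for the acyl group and shape for the treatment, and libraries without a region in the window have no point. MALAT1, NEAT1 and MIR22HG reach ranks of 0.00725%, 0.00846% and 0.0091% of a list, while H19 has no point.

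Coverage of the snoRNA host genes was lower and, where present, lay mostly around their 5′ ends. GAS5 (ENSG00000234741.10, chr1:173858559-173868882, minus strand), a transcript that builds up when growth stops, was covered in 17 of 20 immunoprecipitated libraries with a median of 12.5%. H4K12ac of untreated cells covered 44.4% and 35.5% of it, and H3K18ac there gave 25.7% and 14.5%. Propionyl values were 10.2% and 14.5% for H3K18pr and 13.4% and 22.8% for H4K12pr. In NaPr, GAS5 showed 38.5% and 11.7% for H3K18ac and 13.5% and 6.66% for H4K12ac. The NaBu acetyl values were 14.4%, 9.04%, 7.06% and 1.57%, and of the 4 butyryl lists only H3K18bu replicate 1 had any GAS5 coverage, at 1.96%. Of 10 equal segments of the gene, the first 2 held medians of 18.1% and 60.9%, and each of the other 8 was at 0. The GAS5 start used here lies 893 bp inside the gene record, so most of segment 1 is upstream of it.

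GAS5 shares its start with ZBTB37, a zinc finger gene that begins 93 bp away on the other strand, and its window also overlaps GAS5-AS1. In 12 of the 17 lists with a region, the strongest had its summit 138 to 554 bp downstream of the GAS5 start, inside the transcript. In both H3K18ac NaBu libraries it lay upstream, at −511 and −935 bp, and so it did in untreated H3K18ac replicate 2, at −466 bp. Of the 11 snoRNAs that RefSeq places in GAS5, SNORD74, which is closest to the start at 244 bp, was overlapped by a region in 15 of 20 libraries. The other 10 were overlapped in 0 to 4.

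SNHG1 (ENSG00000255717.9, chr11:62851978-62855953, minus strand) faces SLC3A2, the heavy chain of an amino acid transporter, whose start is 82 bp away. In untreated cells, SNHG1 was covered to 38.2% and 32.9% by H4K12ac and to 30.3% and 24.7% by H3K18ac. Propionyl lists covered 11.9% to 19.8%. NaPr acetyl libraries were scattered, with 48% and 14.4% for H3K18ac and 8.67% and 0% for H4K12ac. NaBu acetyl values were 13.6%, 8.85%, 7.26% and 0%, and only 1 butyryl library had a region there, at 5.99%. The inputs had none. Segment 1 of the SNHG1 body had a median of 0, with a region in 8 of the 20 immunoprecipitated libraries.

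The strongest SNHG1 region leaned to one side of the shared promoter or the other. Its summit was upstream of the SNHG1 start, at −361 to −565 bp and so on the SLC3A2 side, in all 4 propionyl libraries, in the single butyryl library with a region and in 5 of the 6 H3K18ac libraries. It was 166 to 209 bp downstream, inside SNHG1, in both untreated H4K12ac libraries, in H4K12ac NaPr replicate 1 and in H3K18ac NaPr replicate 1, the library with the long list. In H4K12ac NaBu replicate 1 it was 4950 bp downstream, past the 3′ end. The 9 snoRNAs of SNHG1 followed the same gradient as those of GAS5. SNORD25 at 291 bp was overlapped in 8 libraries, SNORD26 at 556 bp in 5, and the other 7 in 0 to 2.

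SNHG5 (ENSG00000203875.13, chr6:85650491-85678932, minus strand) encodes 2 snoRNAs and begins 15 bp from ENSG00000271793. Its coverage was low, with a median of 2.08% and a range of 0% to 10.6%. The NaPr input covered 2.46% of it, above the 1.67% of H3K18pr replicate 2 and the 1.61% of H3K18ac NaPr replicate 2. The highest values were 10.6% in H3K18ac NaPr replicate 1, 9.1% and 7.9% in untreated H4K12ac, and 7.12% and 5.71% in H4K12pr. Of the butyryl libraries only H4K12bu replicate 2 had a region, covering 0.916%. SNORD50B was overlapped in 2 libraries and SNORD50A in none.

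H19 had no region in any of the 23 libraries. The gene (ENSG00000130600.22, chr11:1995166-2004552, minus strand) encodes a fetal growth-associated lncRNA and miR-675. The nearest region lay 2.78 to 161 kb from the gene body in the immunoprecipitated lists, with a median of 51.7 kb, and the closest was in H3K18ac NaBu replicate 1. Of all genes, 4101 or 10.5% had no region in any immunoprecipitated list. Among the 24323 genes with windows of at least 10 kb, as H19 has, this was true of 1069. The window at the GENCODE start of H19 held 51% GC and none of the 6 motifs.

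KCNQ1OT1 (ENSG00000269821.2, chr11:2597308-2700003, minus strand), the antisense lncRNA inside KCNQ1 that silences neighbouring imprinted genes on the paternal copy, was marked around its start and sparsely beyond. Its window of 104696 bp was covered to 9.02% and 7.54% by untreated H4K12ac and to 8.59% and 6.67% by H4K12pr. Untreated H3K18ac gave 4.92% and 4.06%, H3K18pr 4.87% and 3.44%, and H3K18ac NaPr 5.89% and 2.67%. H4K12ac NaPr was lower at 2.14% and 1.51%, the NaBu acetyl values were 2.25%, 0.862%, 0.371% and 0%, and all 4 butyryl lists were at 0. Inputs covered 0.309% to 0.648%. Over the 2 kb centred on the start, however, the 4 untreated acetyl libraries covered 62.6% to 100% and the 4 propionyl libraries 81.1% to 100%. Segments 6 to 9 of the 10 along the gene had no region in any immunoprecipitated library.

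The microRNA hosts differed widely in coverage. MIR17HG had a region in 15 of 20 immunoprecipitated libraries but little of its long window was covered, and MIR22HG was second to MALAT1 among the 9 genes by median coverage, at 48%. The main mature microRNAs of both hosts, from RefSeq on GRCh38.p14 with the seed (bases 2 to 8) in capitals, are shown to identify what lies under the regions. miR-17-5p and miR-20a-5p share 1 seed and miR-19a-3p and miR-19b-3p another.
hsa-miR-17-5p: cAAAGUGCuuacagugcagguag
hsa-miR-20a-5p: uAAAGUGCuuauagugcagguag
hsa-miR-18a-5p: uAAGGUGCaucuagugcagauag
hsa-miR-19a-3p: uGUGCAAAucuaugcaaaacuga
hsa-miR-19b-3p: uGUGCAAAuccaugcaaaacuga
hsa-miR-92a-3p: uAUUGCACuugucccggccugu
hsa-miR-22-3p: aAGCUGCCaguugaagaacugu

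MIR17HG (ENSG00000215417.14, chr13:91347686-91397592, plus strand) was covered to between 0% and 7.75%, with a median of 1.32%. The highest value was H3K18ac NaPr replicate 1, followed by untreated H4K12ac at 5.27% and 3.51% and by H4K12pr replicate 2 at 5.06%, whose partner replicate had no region. The NaPr input covered 2.33% of the window, more than 6 of the 8 libraries immunoprecipitated from NaPr-treated cells. The NaBu input covered 0.613%, above all 4 butyryl libraries, which were at 0% to 0.391%. Hairpins of the 6 microRNAs lie 2908 to 3617 bp from the start, and each was overlapped by a region in 1 to 3 of 20 libraries. The miR-17, miR-18a and miR-19a hairpins were overlapped in H4K12pr replicate 2.

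MIR22HG (ENSG00000186594.16, chr17:1711447-1717174, minus strand), the host of miR-22, lies 651 bp from the start of WDR81. Regions covered 68% and 57.9% of it for untreated H3K18ac and 59.4% and 59.3% for untreated H4K12ac. Propionyl coverage of MIR22HG was 63.7% and 44.7% at H3K18 and 54.9% and 51.2% at H4K12. In NaPr the acetyl sites separated, with 68.3% and 49.3% for H3K18ac against 22% and 20% for H4K12ac. Over all genes with a region, H3K18ac lay wholly above H4K12ac in NaPr at 38.1%. In NaBu, H3K18ac covered 59.5% and 46.7% and H4K12ac 25.1% and 2.24%. Butyryl values were 19.8% and 13.4% for H3K18bu and 3.93% and 0% for H4K12bu, and the inputs were at 0%, 0% and 2.03%. H3K18 values were thus high under every acyl group except butyryl, and H4K12 values were high only for H4K12pr and untreated H4K12ac.

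Within MIR22HG, segment 1 of the 10 along the body was 100% covered at the median and segments 3 to 6 were at 42.9% to 69%. The strongest summit lay 230 to 368 bp downstream of the GENCODE start in 16 of the 19 libraries with a region. The RefSeq start shown above is 964 bp downstream. The miR-22 hairpin, 3187 bp from the GENCODE start, was overlapped in 8 of 20 libraries and in no input.

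**Figure D3:**
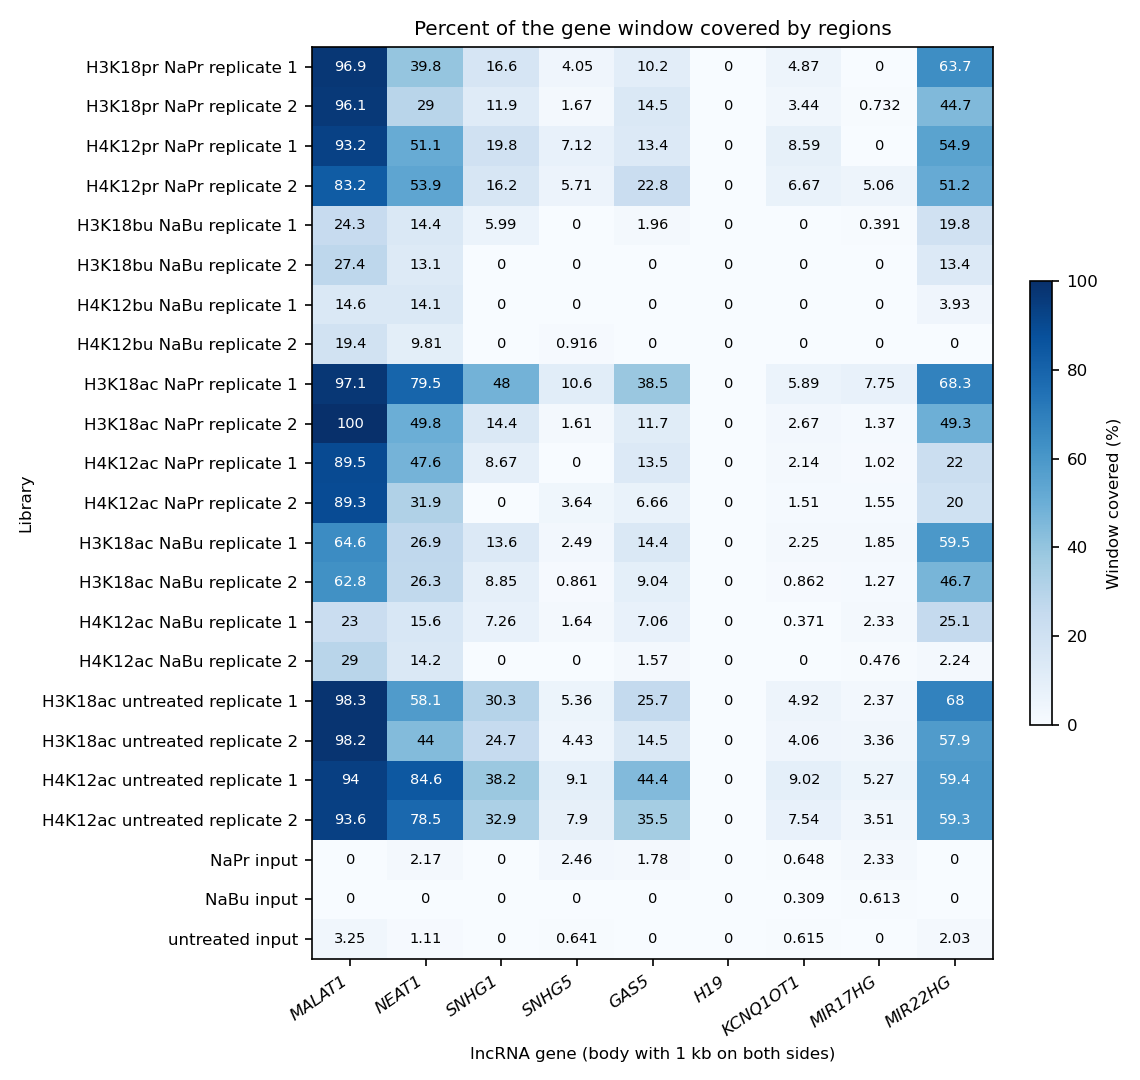
Percentage of each gene window covered by regions, for the 9 lncRNA genes (columns) and the 23 libraries (rows), with darker blue for more coverage and the value printed in each cell. MALAT1 has the highest value in 19 of the 20 immunoprecipitated libraries, the H19 column is 0 throughout, and the 3 input rows reach at most 3.25%.

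Whether a region covered the start base itself did not follow from the total coverage. The start of the canonical transcript was covered in 18 of 20 libraries at NEAT1, 14 at MIR22HG, 8 at GAS5, 4 each at MALAT1, KCNQ1OT1 and MIR17HG, 2 at SNHG5, 1 at SNHG1 and 0 at H19. No input covered any of them. These are 55 of 180 combinations of gene and library. Among all genes, 7.07% had the start covered in at least 10 of the 20 libraries, and 6.1% of lncRNA genes did. Of the 9 genes, 2 did so.

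The few covered starts at MALAT1 came with a gap rather than with missing signal. In the 16 libraries without cover, regions lay on both sides of the start within 1 kb, and the median gap was 399.5 bp, from −239.5 to +134.5 bp around the start at the median. The 4 libraries with a covered start were H3K18pr replicate 1, both H4K12pr libraries and H3K18ac NaPr replicate 2, each with a region of at least 15750 bp. Bare starts between 2 regions were also found at SNHG5 in 8 libraries, SNHG1 and KCNQ1OT1 in 7 each, GAS5 in 4, and NEAT1, MIR17HG and MIR22HG in 2 each. Gap medians ranged from 189.5 bp at MIR22HG to 867 bp at NEAT1. The count depended on the start used. With the RefSeq start, an alternative chosen after seeing the data, MALAT1 was covered in 9 libraries, GAS5 in 11 at a start 1056 bp upstream, and MIR22HG in 4.

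Marks were compared with input first. The mean difference in percentage covered was tested for each gene by exact permutation (two-sided) of libraries within treatments. A gene was called when every immunoprecipitated library lay above the input of the same treatment. The name of the NaPr input list carries the same number tag as the propionyl lists, and the NaPr acetyl lists carry another. For those acetyl libraries, the difference from input and the difference in tag cannot be told apart. The input used for untreated cells is titled as an acetyl input. Of 35434 genes tested, 5.01% were called higher and 0.229% lower. H19, with no region, could not be tested here or in any other comparison. Of the 8 others, 2 were called higher, MALAT1 and NEAT1. Mean coverage was 74.1% against 1.08% at MALAT1, a difference of 73 points, and 43.6% against 1.09% at NEAT1, a difference of 42.5 points. For both the exact p was 0.00247, the smallest that 405 arrangements allow, and the Benjamini-Hochberg adjusted p was 0.083, which does not pass 0.05.

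MIR22HG missed this call through H4K12bu replicate 2, which was at 0% like its input. Its difference was 42.4 points with an exact p of 0.00494 and an adjusted p of 0.102. GAS5 and SNHG1 differed from input by 16.3 and 17.6 points, with adjusted p of 0.126 and 0.152 in the permutation test. SNHG5, KCNQ1OT1 and MIR17HG differed by 2.88, 3.24 and 1.22 points, with adjusted p of 0.222, 0.136 and 0.441. The median difference was 16.3 points over the 9 genes and 2.29 over all genes. No gene of the genome passed an adjusted p of 0.05 here, whereas 10622 had an unadjusted p under 0.05.

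Propionyl marks were next set against acetyl marks of the same site, both in NaPr. A gene was called when libraries lay apart in the same direction at both sites. The test had 36 arrangements here and in the 3 comparisons that follow, so its p could not go below 0.0556. None of the 9 genes was called, where 8.11% of 33199 genes were called higher and 0.898% lower. Means were close at MALAT1, with 92.3% for propionyl and 94% for acetyl, a difference of −1.62 points with an exact p of 0.5. The widest differences were +13.7 points at MIR22HG, with an exact p of 0.278, and −8.72 points at NEAT1, with an exact p of 0.611.

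The sites were also read apart. At H3K18 the propionyl mean was lower than the acetyl mean at 8 genes, by 30.2 points at NEAT1, 16.9 at SNHG1 and 12.8 at GAS5. The H3K18 libraries lay apart, with propionyl lower, at 3 of the 9 genes (MALAT1, NEAT1 and MIR17HG) and at 12.4% of all 30744 genes with a region. They lay apart with propionyl higher at 14.5% of these genes, and overlapped at SNHG1 and GAS5. Set against H3K18ac NaPr replicate 2 alone, the difference was −15.4 points at NEAT1 and −0.117 at SNHG1, and the propionyl mean was the higher one at GAS5, SNHG5, KCNQ1OT1 and MIR22HG. At H4K12 the propionyl mean was higher at 7 genes, by 32 points at MIR22HG, 13.7 at SNHG1 and 12.8 at NEAT1. NEAT1 was the only one of the 9 whose libraries lay apart at both sites in opposite directions. At H4K12 the libraries lay apart, with propionyl higher, at 5 of the 9 genes and at 54.8% of all 31226 genes with a region. With H3K18ac NaPr replicate 1 left out, SNHG5 and KCNQ1OT1 were called higher in propionyl, and 28.8% of all genes were too. The names of the propionyl lists carry 1 number tag and those of the NaPr acetyl lists another. It is called a run tag here, although no label says what it marks. Mark and run tag cannot be told apart in this comparison.

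Butyryl marks covered less than the acetyl marks of the same site in NaBu at each of the 8 genes with regions. MALAT1 had means of 21.4% and 44.8%, a difference of −23.4 points. NEAT1 had 12.9% and 20.7%, GAS5 0.489% and 8.02%, and MIR17HG 0.0978% and 1.48%. At these 4 genes every butyryl library lay below every acetyl library at both sites, with an exact p of 0.0556 and an adjusted p of 0.323. Across all 28359 genes tested 16.4% were called lower and 0% higher, and 98.6% had a lower mean. MIR22HG had the largest difference of the 9, at −24.1 points with an exact p of 0.111, but its H4K12 libraries overlapped.

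These differences went with the length of the lists. Butyryl lists covered 2.78 to 9.97 Mb of the genome and NaBu acetyl lists 4.51 to 46.4 Mb. When each list was reduced to its 8158 strongest regions, none of the 9 genes was called, beside 12.6% of 12383 genes called lower. MALAT1 coverage at that length was 21.5% for H3K18bu and 36.5% for H3K18ac, with libraries apart, and 17% for H4K12bu and 19.4% for H4K12ac, with libraries overlapping. As percentiles among genes within a list, MALAT1 was 0.195 points and NEAT1 1.95 points higher in butyryl than in acetyl libraries, and MALAT1 was at or above 98.7 on that scale in every immunoprecipitated list. With H4K12ac NaBu replicate 2 left out, 8 of the 9 genes were called lower, as were 51.2% of all genes. All NaBu libraries shared 1 run tag. The names of the acetyl lists among them carry a further tag that may mean control, while their labels say NaBu.

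NaPr was compared with no treatment for the acetyl marks. None of the 9 genes was called, while 11% of 33043 genes were called lower and 0.533% higher. The sites were read apart here too. For H4K12ac, both NaPr libraries lay below both untreated libraries at all 8 genes with regions, by 41.8 points at NEAT1, 38.3 at MIR22HG, 31.2 at SNHG1, 29.9 at GAS5, 6.68 at SNHG5, 6.45 at KCNQ1OT1, 4.42 at MALAT1 and 3.1 at MIR17HG. The same was true of 60.9% of all 31023 genes with a region at this site. For H3K18ac, NaPr and untreated libraries overlapped at each of the 8 genes, and lay apart with NaPr lower at 16.9% of 30698 genes. Without H3K18ac NaPr replicate 1, 6 of the 9 genes were called lower (SNHG1, SNHG5, GAS5, KCNQ1OT1, MIR17HG and MIR22HG), beside 45.5% of all genes. H4K12ac NaPr lists had 130361 to 144275 regions over 38.2 to 44.9 Mb, and untreated H4K12ac lists 191194 to 208823 over 76.7 to 86 Mb. NaPr and untreated acetyl libraries shared a run tag. The NaPr acetyl libraries also served the propionyl comparison, so these are not independent.

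NaBu was compared with no treatment in the same way. Of the 9 genes, 7 were called lower, namely MALAT1, NEAT1, SNHG1, SNHG5, GAS5, KCNQ1OT1 and MIR17HG, where 45.4% of 32680 genes were called lower and 0.468% higher. Each of the 7 had an exact p of 0.0556, the smallest possible, and an adjusted p of 0.121, so none passed an adjusted 0.05. MALAT1 went from a mean of 96% in untreated cells to 44.8% in NaBu, NEAT1 from 66.3% to 20.7%, SNHG1 from 31.5% to 7.42% and GAS5 from 30% to 8.02%. SNHG5 means were 6.7% and 1.25%, KCNQ1OT1 means 6.38% and 0.87%, and MIR17HG means 3.63% and 1.48%. Without H4K12ac NaBu replicate 2 the 7 genes were called as before, beside 45.4% of all genes.

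MIR22HG, the other testable gene, was not called. Its H3K18ac values overlapped between NaBu and untreated cells, while its H4K12ac mean was 13.7% in NaBu (25.1% and 2.24%) and 59.3% without treatment. The overall difference was −27.8 points with an exact p of 0.111. With the replicate block, which sets same-numbered libraries against each other, MIR22HG was lower in all its pairs and 8 genes were called lower, beside 50.7% of all genes. The median difference was −22 points over the 9 genes and −3.27 over all genes. NaBu acetyl lists covered 4.51 to 46.4 Mb and untreated ones 67.2 to 86 Mb, and with every list reduced to 8158 regions 4 genes (MALAT1, NEAT1, SNHG1 and GAS5) were still called lower, beside 25.1% of genes. At that equal length, MALAT1 coverage by H3K18ac was 36.5% in NaBu and 98.3% in untreated cells. The lower MALAT1 coverage in NaBu went with more, narrower regions, 6 to 11 a library against 2 to 4 in untreated cells. Leaving out every region that overlapped an input region turned the MALAT1 difference to +12.9 points, since the wide untreated regions are then dropped whole. NaBu and untreated libraries had different run tags, so treatment and run tag cannot be told apart. The names of the NaBu acetyl lists also carry a tag that may mean control, and the labels, which say NaBu, were followed. The NaBu acetyl libraries were also those of the butyryl comparison.

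H3K18 was compared with H4K12 within each of the 5 pairs of acyl group and treatment, each pair from 1 run tag. MALAT1 was covered more at H3K18, by 8.32 points for propionyl, 8.8 for butyryl, 9.16 for acetyl in NaPr, 37.7 for acetyl in NaBu and 4.5 for acetyl in untreated cells. The libraries did not overlap in any of the 5. Over all genes with a region, H3K18 lay wholly above H4K12 at 10.6% for propionyl and 40.7% for butyryl. For acetyl it did so at 38.1% in NaPr, 44.8% in NaBu and 22.6% in untreated cells. The mean MALAT1 difference was 13.7 points, from 62.9% at H4K12 to 76.6% at H3K18. The exact p was 0.000257, the smallest that 7776 arrangements allow, and the adjusted p was 0.0368. MIR22HG was also higher at H3K18, 49.1% against 29.8%, with an exact p of 0.00386 and an adjusted p of 0.0962. Its libraries lay apart for butyryl and for acetyl in NaPr and NaBu, and overlapped for propionyl and for untreated acetyl. In the pairs where MIR22HG lay apart, so did 40.7%, 38.1% and 44.8% of all genes with a region, in the same direction.

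These 2 calls compare with 13.9% of 34798 genes called higher and 2.03% called lower at an exact p under 0.05. In this comparison 554 genes passed an adjusted 0.05, MALAT1 among them. The same-numbered libraries deviated together in all 5 pairs, which the exact test does not take into account. The replicate block gives no p-value and calls a gene when all differences between same-numbered libraries share a sign. By that rule only MALAT1 of the 9 kept its call, beside 1.53% of genes called higher, and MIR22HG lost it. Without H4K12ac NaBu replicate 2, MALAT1 and MIR22HG were both still called, by 14.3 and 17.1 points, beside 11.4% of genes, and so they were without H3K18ac NaPr replicate 1, beside 13.1%. The means of the other 6 genes with regions had exact p of 0.325 to 0.989, but differences of opposite sign offset each other in them. In untreated cells H3K18ac lay wholly below H4K12ac at all 6, with differences of −30.5 points at NEAT1, −19.9 at GAS5 and −8.01 at SNHG1, as at 29.1% of all genes. In NaBu H3K18ac lay wholly above H4K12ac at NEAT1, SNHG1, GAS5 and KCNQ1OT1, as at 44.8% of all genes. With every list reduced to 8158 regions, MALAT1 means stayed higher at H3K18 in all 5 pairs, with a mean difference of 9.86 points and the call kept, beside 16.3% of genes. Its mean difference was −0.1 in number of regions and −7.22 points with regions overlapping an input region left out. As a percentile among genes it was −0.00154, on a scale where MALAT1 was at or above 98.7 in every immunoprecipitated list and so had little room to differ.

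**Figure D4:**
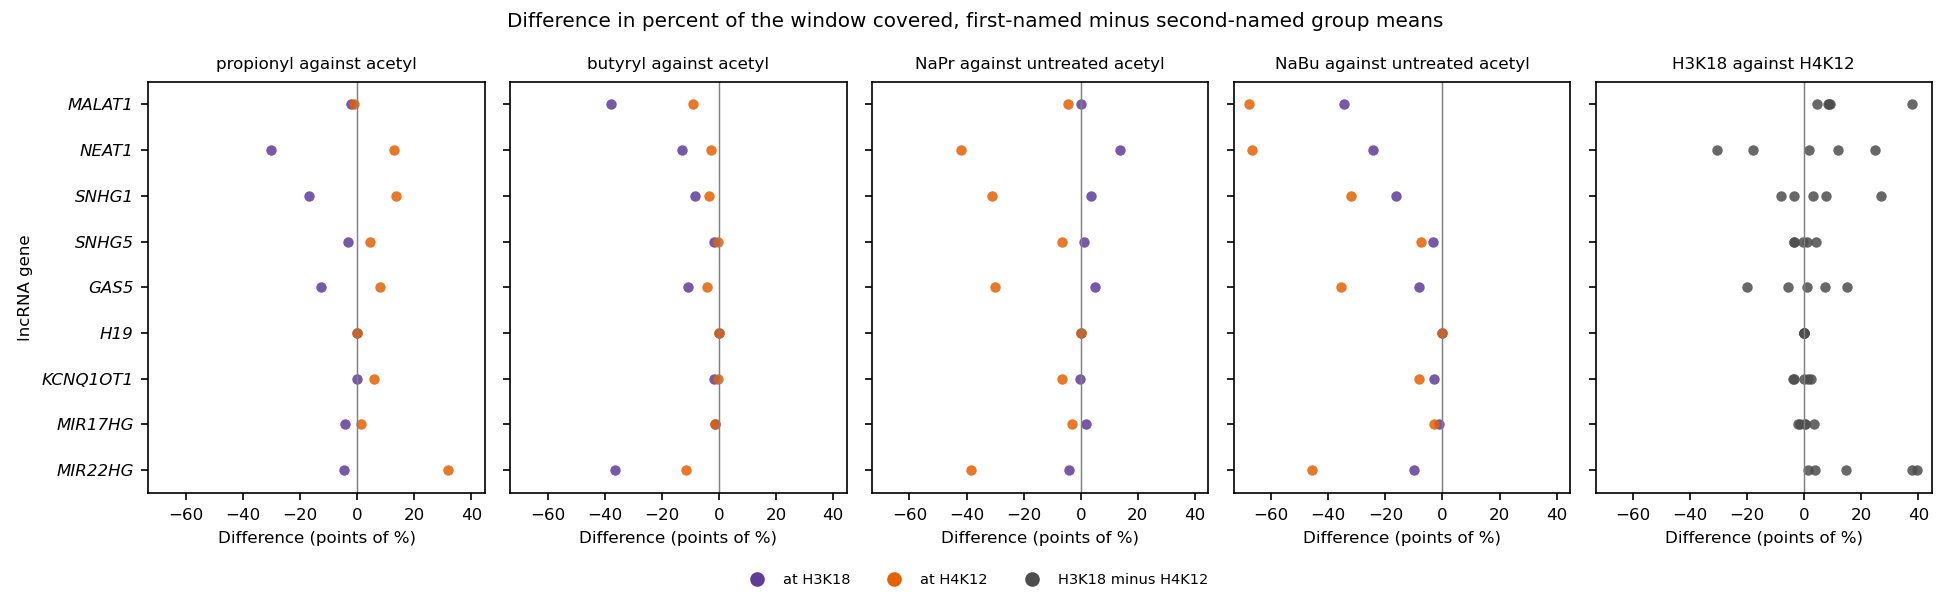
Difference in the percentage of the gene window covered, as the mean of the first-named group minus the mean of the second, for the 9 lncRNA genes in 5 comparisons. Each point is 1 pair of groups with 2 libraries a group, at H3K18 (purple) or H4K12 (orange), or H3K18 minus H4K12 for 1 acyl group and treatment (gray), and the vertical line marks no difference. In NaBu against untreated cells MALAT1 is at −34.6 and −67.8 points, and in H3K18 against H4K12 its 5 points lie between 4.5 and 37.7.

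The listed 20 other lncRNA genes of the same kinds (12 snoRNA hosts, 5 microRNA hosts and 3 nuclear or imprinted genes) show how the 9 compare with relatives. Against input 3 of the 20 were called higher, SNHG15 and SNHG29 with the largest differences at 32.8 and 17.8 points. None was called in propionyl against acetyl or in NaPr against untreated cells. In butyryl against acetyl 6 were lower, led by SNHG15 at −19.2 points and SNHG29 at −7.99. In NaBu against untreated cells 14 were lower, led by SNHG3 at −64.3 points and SNHG12 at −38.8. At H3K18 against H4K12, TUG1 was 5.79 points and MIR100HG 0.444 points higher. Start sites were covered in at least 10 libraries for 3 of the 20. Median coverage was low at the imprinted gene MEG3, at 0.426%, and also at the microRNA hosts MIR155HG (0%), MIR31HG (0.616%) and MIR100HG (0.812%). Unlike H19, MEG3 had regions, which covered up to 2.8% of its window.

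The pattern of each gene across libraries was also set beside that of all genes on other chromosomes, as the Spearman correlation over the 20 immunoprecipitated libraries of the percentile of coverage within a list. The most similar gene was UBE2E3-DT for MALAT1 (rho 0.9), PTRH2 for NEAT1 (0.91), PILRA for SNHG1 (0.86), LETMD1 for SNHG5 (0.847), SMU1 for GAS5 (0.895), RWDD2B for KCNQ1OT1 (0.947), PSMA1 for MIR17HG (0.895) and PLAC9 for MIR22HG (0.874). These are the highest of many correlations over libraries that share run tags and list lengths, and they are given as a description.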

How the data were processed

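ChIP-seq regions of 23 libraries from SW480 cells were analysed from the authors' deposited lists. Per the submitters' processing notes and the study's methods, reads were handled with bcl2fastq 2.17.1, cutadapt 1.8.1 and Bowtie2 2.3.1 on hg38, and peaks were called with MACS2 2.1.0 in each library on its own at p 0.01, with blacklisted regions removed. Which control the 3 input lists used is not given in the sources used here. Each region in the deposited lists carries a fold enrichment, which is a ratio to local background, and the authors' −log10 p-value and −log10 q-value. These were used only to rank or filter regions within a list. The study's own test worked on reads, which were not analysed here, so no read-level change is given, and depth is described by list length and by Mb covered.

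Groups came from the sample labels. The names of the 4 acetyl NaBu lists carry a tag that may mean control, while the labels say NaBu, and the labels were followed. No 2 lists were identical, and no region passed the end of an hg38 chromosome. Genes were the 38899 protein-coding and lncRNA genes of GENCODE 44, start sequences and small RNAs were from RefSeq or the hg38 genome, and all 9 genes were named throughout. Of a list of 20 other lncRNA genes at most 2 called genes with the largest difference were named per comparison. The genes and lists were chosen with earlier results of these data known, and this holds for the tests too.

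For each gene with a region in the libraries compared, the difference in mean coverage of the window was tested by exact permutation of libraries within strata (two-sided), adjusted by Benjamini-Hochberg over all genes tested, in Python 3.11.15 with numpy 2.4.6, scipy 1.17.1 and pandas 2.3.3. The procedure was tested on simulated data with independent noise in each library, which held neither correlated replicates nor lists of different length. Same-numbered libraries of H3K18 and H4K12 had deviations from their group means that correlated at 0.114 to 0.279 in all 5 pairs of groups, which is why a replicate block is given for that comparison. Alternatives were a q-value filter of 0.05, equal numbers of regions, no flanks or 5 kb flanks, number of regions, percentiles, leaving out regions that overlap input, the replicate block and leaving out each library.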

Additional observations from a re-analysis of the deposited data

Results flagged for a closer look

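NEAT1 differed in direction between the 2 histone sites when propionyl was set against acetyl in NaPr. At H3K18 both propionyl libraries (39.8% and 29%) lay below both acetyl libraries (79.5% and 49.8%), a mean difference of −30.2 points. At H4K12 both propionyl libraries (51.1% and 53.9%) lay above both acetyl libraries (47.6% and 31.9%), a mean difference of 12.8 points. The difference between the sites was not tested. The larger of the H3K18ac values belongs to the library with 202787 regions, and the order at H3K18 is the same against the other H3K18ac library alone.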

How the results depend on the processing

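Over 284 alternatives for the 15 called combinations of gene and comparison, 242 left direction and call as they were, 33 lost the call and 9 turned the direction. The cause was not tested except where the construction of an alternative shows it.

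Shares of all genes called at the same setting follow in brackets. With equal numbers of strongest regions, propionyl against acetyl called 1 gene higher (12.6%) and 1 lower (1.85%), against 0 and 0 as reported, butyryl against acetyl 0 lower (12.6%, 4 as reported), NaPr against untreated acetyl 1 lower (12.2%, 0 as reported) and NaBu against untreated acetyl 4 lower (25.1%, 7 as reported). Without flanks, propionyl against acetyl called 1 lower (0.946%) and butyryl against acetyl 2 lower (12.8%). With q-values under 0.05, butyryl against acetyl called 1 lower (7.81%). Counted by number of regions, butyryl against acetyl called 2 lower (7.06%), and NaBu against untreated acetyl 0 lower (10.7%) and 1 higher (0.239%). By the same count, H3K18 against H4K12 called 0 higher (3.45%, 2 as reported). Marks against input called 1 higher (2 as reported), for which no share of all genes was computed. As percentiles, propionyl against acetyl called 3 lower (8.77%), butyryl against acetyl 0 lower (1.96%) and 2 higher (7.25%), NaBu against untreated acetyl 2 lower (10.9%) and 1 higher (15.3%), and H3K18 against H4K12 1 higher (8.17%) and 1 lower (13.1%). With regions overlapping an input region left out, butyryl against acetyl called 2 lower (13%) and H3K18 against H4K12 1 higher (9.99%).

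Directions turned as percentiles for MALAT1 (0.195) and NEAT1 (1.95) in butyryl against acetyl, for GAS5 (0.155) and MIR17HG (16.7) in NaBu against untreated acetyl, and for MALAT1 in H3K18 against H4K12 (−0.00154), where MALAT1 was at or above 98.7 in every immunoprecipitated list. By number of regions, MALAT1 turned to 5.5 in NaBu against untreated acetyl and to −0.1 in H3K18 against H4K12. With input-overlapping regions left out it turned to 12.9 and −7.22.

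Leaving out 1 library at a time gave 0 to 2 genes higher and 0 to 1 lower in propionyl against acetyl, 4 to 8 lower in butyryl against acetyl (8 without H4K12ac NaBu replicate 2), 0 to 6 lower in NaPr against untreated acetyl (6 without H3K18ac NaPr replicate 1), 7 to 8 lower in NaBu against untreated acetyl, 2 higher throughout in H3K18 against H4K12, and 2 to 3 higher in marks against input. Where this left 1 library in a group, its spread was not measured.

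The replicate block left 1 gene, MALAT1, higher in H3K18 against H4K12, 5 lower in butyryl against acetyl and 8 lower in NaBu against untreated acetyl, beside 1.53%, 20% and 50.7% of all genes. Over the 13 pairs of groups compared, same-numbered libraries correlated in their deviations at 0.0372 to 0.312, with 10 over 0.1. Covered starts numbered 55 of 180 as reported, 125 with a region within 1 kb and 35 with input-overlapping regions left out. Depth limits what a 0% means: it says only that no region was listed in that library, and lists as short as 8158 regions miss weaker sites.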
